A study of Chlorocebus sabaeus with 18 samples.

Results

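The genes described here are CHP1, STRADB, SLC15A4, BABAM1, SZRD1, MANBAL, BAG2, GRB2, EHD2 and ARMCX1, 10 genes whose array signal was lower in COS-7 cells treated to knock down TRA2A, both without and with a CGG repeat construct. They were chosen from the measured values, by their change in the knockdown arrays, and each was read from the transcript cluster of its symbol with the highest mean. All 10 were among the 67854 transcript clusters tested, of 135750 on the array, where a transcript cluster is the array's unit for a gene. Ordered by the log2 difference between CGG_siTRA and CGG, they held the first rank and ranks 3 to 11 of 19545 named genes, and TRA2A held rank 2. GRB2 lay just inside with a log2 difference of -1.53, and the pseudogene CBX1P2 just outside with -1.50.

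COS-7 is a fibroblast-like kidney line of the green monkey, and its RNA was hybridised to 18 arrays of the Clariom D Human type, with 3 arrays for each of 6 groups. The CGG_siTRA cells carried a construct of the FMR1 5' untranslated region with 60 CGG repeats together with knockdown of TRA2A, and the CGG_TRA cells the same construct with overexpression of TRA2A. The CGG cells carried the construct alone. The siTRA cells had TRA2A knocked down without the construct, the GFP_TRA cells overexpressed TRA2A, with GFP named in their titles, and the CTL cells were the controls. The labels name no control siRNA, no transfection for the controls and no construct without the repeat, and the siRNA sequence is not given in the sources used here. Under condition, the controls are called COS-7, COS-6 and COS-5 in turn, although the cell line field says COS-7 for each. A loss of TRA2A and any other effect of the siRNA therefore cannot be told apart in these groups. Nothing in the labels says whether the 3 arrays of a group stem from separate cultures, so p-values measure the spread between arrays, which may be technical.

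TRA2A is an SR-like RNA-binding protein that promotes inclusion of exons with purine-rich enhancers, and TRA2B is its close paralog. Short interfering RNAs lower a matching transcript by guiding its cleavage, and they can also lower transcripts with shorter matches. Expanded CGG repeats in FMR1 RNA cause FXTAS, a late-onset tremor and ataxia syndrome, and bind RNA-binding proteins. The 10 genes come from unrelated pathways, which are named with each gene.

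Values are log2 array signals, as deposited. The array medians lay between 4.14 and 4.20 and arrays correlated at r between 0.974 and 0.986. On the first principal component (12.7% of the variance) the CTL arrays lay at -79.5, -63.6 and -30.7, against -10.7 to 36.2 for the other 15, so every comparison with CTL rests on controls that stand apart from the rest. CGG array 1 and siTRA array 3 are marked as rehybridised. TRA2A had 11.40, 12.04 and 11.20 in the siTRA arrays, against 14.65, 14.68 and 14.54 in the CTL arrays. It had 11.63, 11.96 and 11.88 in the CGG_siTRA arrays, against 14.49, 14.51 and 14.71 in the CGG arrays. These are differences of -3.08 ± 0.19 and -2.75 ± 0.19 (SE). TRA2B was called in neither comparison, at 0.30 ± 0.15 (limma adjusted p = 0.41) and 0.36 ± 0.15 (limma adjusted p = 0.606). Its siTRA arrays all lay above CTL, and its CGG_siTRA arrays all above CGG. Of the mesenchymal markers, VIM, CDH2 and FN1 had mean signals of 15.86, 15.82 and 15.19. COL1A1, S100A4, COL1A2 and THY1 of the same list had 8.01, 7.83, 6.12 and 4.48. Epithelial markers ranged from 6.16 for KRT19 to 13.99 for KRT8, with EPCAM at 12.46, and the kidney factor PAX8 had 10.32. PAX2 (3.60), the endothelial CDH5 (3.25) and the erythroid HBB (3.70) were under the filter on low signals, a mean of 4.14. Above it were 5 of 6 endothelial and 2 of 4 erythroid markers, up to 6.66 for VWF and 6.99 for HBA1.

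The gene with the largest difference was CHP1, an EF-hand protein related to calcineurin B that binds the sodium-proton exchanger NHE1. CHP1 had 11.71, 11.58 and 11.32 in the siTRA arrays, against 13.55, 13.72 and 13.83 in the CTL arrays. It had 11.15, 11.15 and 11.75 in the CGG_siTRA arrays, against 14.30, 13.91 and 14.23 in the CGG arrays. The 6 knockdown arrays lay within 1 log2 unit of each other and below the other 12 arrays. The signal was 4.48-fold lower in siTRA than in CTL (log2 difference -2.16 ± 0.19, SE) and 6.95-fold lower in CGG_siTRA than in CGG (-2.80 ± 0.19). Since these differences chose the genes, they are given for all 10 as a description with no test. In bulk RNA, fewer cells with a transcript and less of it per cell cannot be told apart.

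BAG2 and GRB2 act in protein folding and in receptor signalling. BAG2 is a co-chaperone that binds Hsp70 and slows the handing of its clients to the ubiquitin ligase CHIP. BAG2 had 12.72, 12.60 and 12.02 in the siTRA arrays, against 13.64, 13.78 and 13.96 in the CTL arrays. In the CGG_siTRA arrays it had 12.59, 12.66 and 12.62, against 14.11, 14.27 and 14.40 in the CGG arrays. Neither pair of groups overlapped, and the signals were 2.54-fold and 3.11-fold lower (-1.35 ± 0.18 and -1.64 ± 0.18). GRB2 is the adaptor that couples activated receptor tyrosine kinases to SOS and RAS. It had 13.04, 12.86 and 12.86 in the siTRA arrays, against 13.62, 13.99 and 14.07 in the CTL arrays. It had 12.66, 12.80 and 12.70 in the CGG_siTRA arrays, against 14.20, 14.16 and 14.39 in the CGG arrays. GRB2 differed by -0.97 ± 0.17 without and -1.53 ± 0.17 with the construct, and its arrays did not overlap in either pair.

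The next pair act as scaffolds of larger complexes. STRADB is a pseudokinase that binds and activates the tumour suppressor kinase LKB1. STRADB had 10.38, 9.91 and 9.83 in the siTRA arrays, against 11.54, 11.82 and 11.58 in the CTL arrays. It had 9.52, 9.35 and 10.19 in the CGG_siTRA arrays, against 11.36, 11.76 and 11.96 in the CGG arrays. Each pair of groups was separate, with signals 3.05-fold and 4.02-fold lower (-1.61 ± 0.23 and -2.01 ± 0.23). BABAM1, also called MERIT40, holds together the BRCA1-A complex of the DNA damage response and the cytoplasmic deubiquitinase BRISC. BABAM1 had 9.96, 9.24 and 9.5 in the siTRA arrays, against 10.09, 11 and 10.92 in the CTL arrays. In the CGG_siTRA arrays it had 9.47, 9.36 and 9.98, against 11.40, 11.19 and 11.43 in the CGG arrays. The highest siTRA array and the lowest CTL array lay close together, while the pair with the construct was wide apart. The differences were -1.10 ± 0.26 and -1.74 ± 0.26. A second transcript cluster of the BABAM1 symbol, with a lower mean, differed by -0.22 between siTRA and CTL.

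SLC15A4 and EHD2 act at membranes. SLC15A4 is a proton-coupled transporter of histidine and peptides in the lysosomal membrane, where it takes part in Toll-like receptor signalling in immune cells. It had 10.57, 10.39 and 10.28 in the siTRA arrays, against 11.68, 11.97 and 11.69 in the CTL arrays. It had 10.55, 9.94 and 10.40 in the CGG_siTRA arrays, against 12.14, 11.94 and 12.11 in the CGG arrays. The knockdown arrays formed 1 band well below the rest, 2.58-fold under CTL and 3.40-fold under CGG (-1.37 ± 0.20 and -1.77 ± 0.20). EHD2 is an ATPase of the dynamin-like EHD family that sits at the neck of caveolae. EHD2 had 12.50, 12.64 and 12.52 in the siTRA arrays, against 13.00, 12.85 and 13.52 in the CTL arrays. In the CGG_siTRA arrays it had 12.35, 12.21 and 12.13, against 14.10, 13.44 and 13.89 in the CGG arrays. The gap to CTL was narrow and the gap to CGG wide, at -0.57 ± 0.19 and -1.58 ± 0.19.

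SZRD1 and MANBAL are little-studied genes. SZRD1 carries a SUZ domain, a motif found in RNA-binding proteins. It had 9.69, 10.11 and 10.17 in the siTRA arrays, against 10.55, 11.21 and 11.63 in the CTL arrays. It had 9.94, 9.83 and 10.12 in the CGG_siTRA arrays, against 11.78, 11.57 and 11.66 in the CGG arrays. Both pairs were separate, with CTL more scattered than CGG, and the differences were -1.14 ± 0.23 and -1.71 ± 0.23. MANBAL is named for likeness to beta-mannosidase. MANBAL had 6.13, 6.35 and 6.68 in the siTRA arrays, against 8.07, 8.26 and 8.24 in the CTL arrays. It had 6.98, 6.49 and 6.58 in the CGG_siTRA arrays, against 8.32, 8.33 and 8.36 in the CGG arrays. MANBAL was 3.49-fold and 3.15-fold lower (-1.80 ± 0.18 and -1.65 ± 0.18), and it was the gene among the 10 whose difference was not larger with the construct.

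ARMCX1, an X-linked armadillo-repeat protein of the outer mitochondrial membrane that takes part in mitochondrial transport in mouse neurons, differed in pattern from the others. ARMCX1 had 8.02, 7.32 and 7.99 in the siTRA arrays, against 7.81, 8.03 and 8.34 in the CTL arrays. In the CGG_siTRA arrays it had 8.15, 7.02 and 7.76, against 9.10, 9.32 and 10 in the CGG arrays. The siTRA and CTL arrays overlapped, with a difference of -0.28 ± 0.28, while CGG_siTRA was 3.56-fold below CGG (-1.83 ± 0.28). CTL itself was low for ARMCX1, so that its level without the construct was near that of the knockdown arrays.

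**Figure D1:**
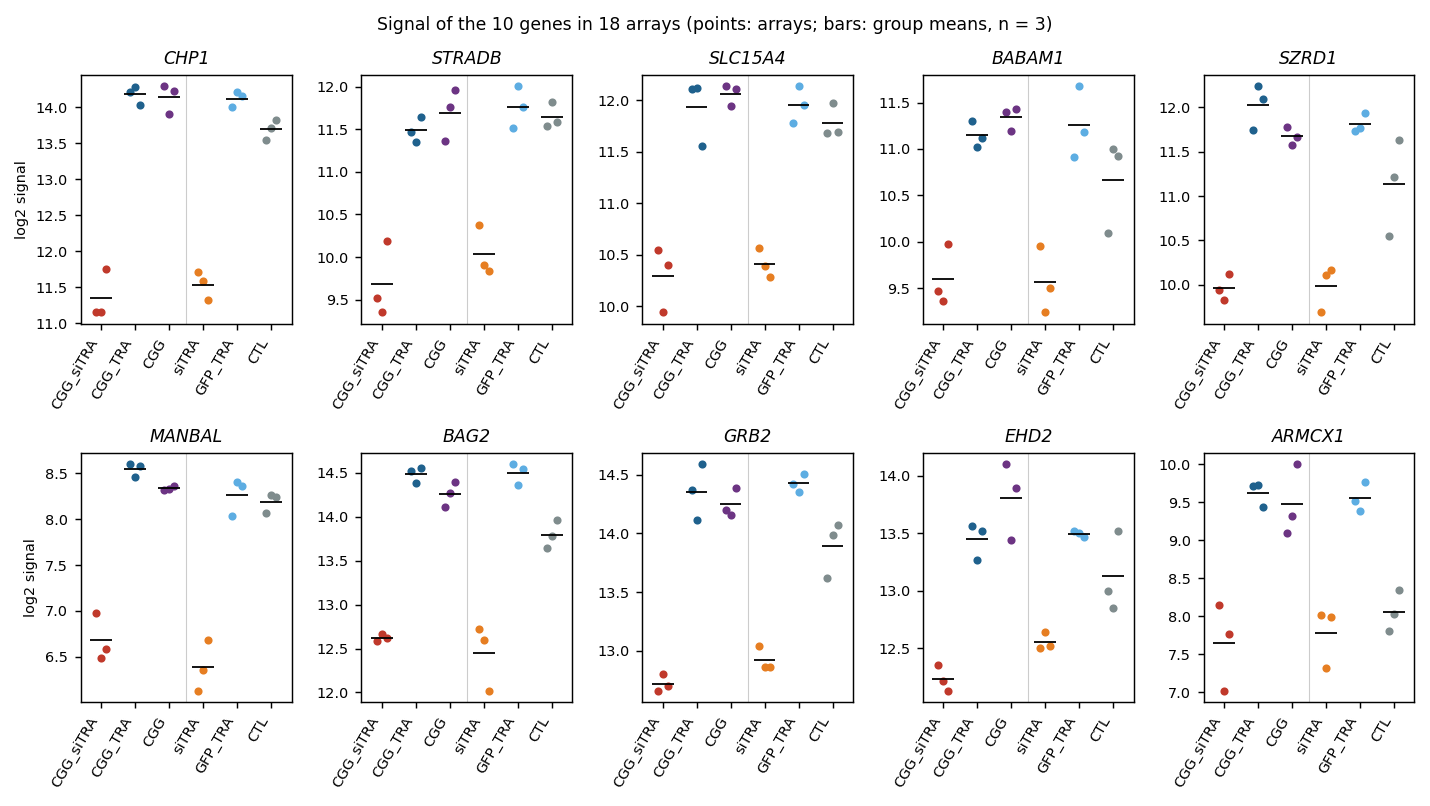
Log2 signal of the 10 genes in each of the 18 arrays, 1 panel per gene, with groups along the horizontal axis, points for arrays and bars for group means (n = 3). In 9 panels the 6 knockdown arrays lie under the other 12, and in the panel of ARMCX1 CTL arrays 1 and 2 lie among them and CTL array 3 just above.

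For 9 of the 10 genes the siTRA arrays were all below the CTL arrays, a pattern found for 6.12% of all tested transcript clusters, and for 10 of 10 the CGG_siTRA arrays were all below the CGG arrays (4.73%). All 6 knockdown arrays lay below all 12 others for 9 of the 10, ARMCX1 being the exception, and for 181 of 67854 transcript clusters (0.267%). These counts restate how the genes were chosen. The median difference of the 10 was -1.24 between siTRA and CTL, beside 0.01 over all tested, and -1.72 between CGG_siTRA and CGG, beside 0.03. When the gene value was replaced by the median of its exon-level features, the medians were -0.71 and -0.92.

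The order of the genes differed between the 2 knockdown comparisons. Between siTRA and CTL, CHP1 held rank 6, MANBAL 12, STRADB 20, SLC15A4 40, BAG2 41, SZRD1 72, BABAM1 81 and GRB2 116 of 19545, and EHD2 and ARMCX1 held ranks 474 and 1811. When each gene was ordered by the weaker of its 2 differences, CHP1, MANBAL and STRADB followed TRA2A directly, SLC15A4 and BAG2 held ranks 6 and 7, and ARMCX1 held rank 449. The first genes outside the group in that order, after TRA2A, were MOB1A, an activator of LATS kinases in Hippo signalling, at -1.49 without and -1.38 with the construct, and TRUB1, a pseudouridine synthase, at -1.31 and -1.34. The zinc-finger protein ZCCHC9 stood at -1.58 and -1.30, and IGF2BP2, an RNA-binding protein that stabilises mRNAs, at -2.10 and -1.28.

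**Figure D2:**
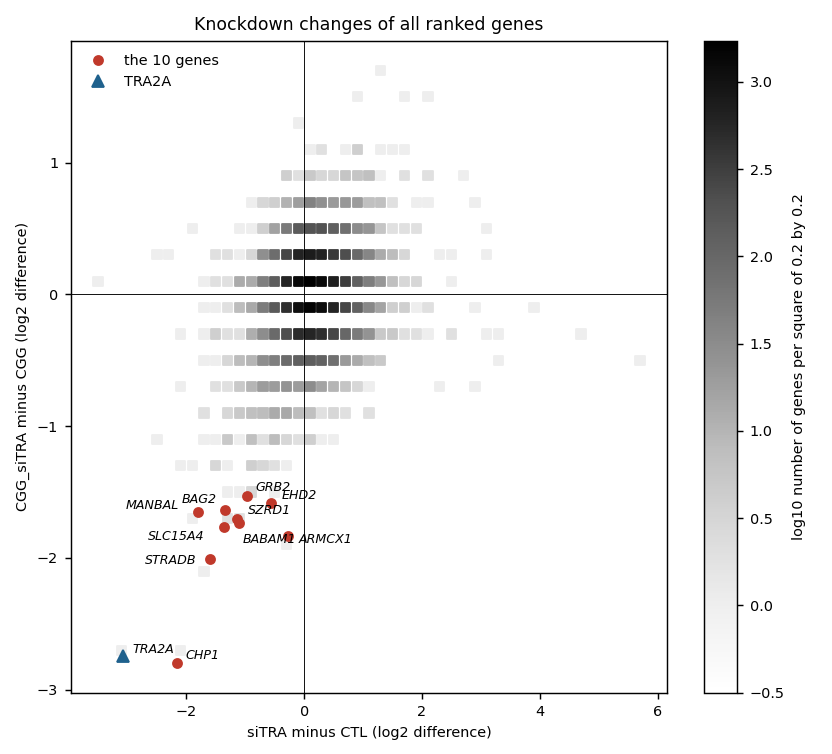
Log2 difference between CGG_siTRA and CGG (vertical) against that between siTRA and CTL (horizontal) for the 19545 named genes, as shaded squares of 0.2 by 0.2 whose darkness gives the log10 number of genes, with the 10 genes as circles and TRA2A as a triangle. CHP1 and TRA2A lie apart at the lower left, and ARMCX1 lies at the bottom near 0 on the horizontal axis.

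Whether the knockdown difference depended on the construct is read from the interaction, the difference between CGG_siTRA and CGG minus that between siTRA and CTL. It is built from the 4 groups that chose the genes, which were the first ranks by the CGG_siTRA difference, so negative values are favoured and it is given as a description. ARMCX1 had -1.55 ± 0.39 and EHD2 -1.01 ± 0.27 (SE). CHP1 had -0.63 ± 0.27, GRB2 -0.56 ± 0.24 and MANBAL, the 1 gene above 0, 0.15 ± 0.25. The median was -0.56, beside 0.00 over all tested. Limma called 0 of the 10, beside 0.175% of all transcript clusters, a count that belongs to this description and is no test of the construct.

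With TRA2A overexpressed and no construct, ARMCX1 was called higher than in CTL, and the other 9 genes did not pass the test. ARMCX1 had 9.52, 9.39 and 9.76 in the GFP_TRA arrays, against 7.81, 8.03 and 8.34 in the CTL arrays. This was 2.82-fold higher (1.5 ± 0.28, limma adjusted p = 0.0129), and 1 of 10 called higher stands beside 0.949% of all tested. The ARMCX1 means were 9.56 in GFP_TRA, 9.47 in CGG and 9.62 in CGG_TRA, against 8.06 in CTL. CGG, without overexpression of TRA2A, thus lay at a like distance above the same CTL arrays. The call was lost without CTL array 1 (adjusted p = 0.0790), without GFP_TRA array 3 (0.0687) and with the variance taken from the arrays compared (0.0559). All 10 differences were above 0, from 0.08 for MANBAL to 1.5, with a median of 0.48 beside 0.01 over all tested. Not every sign held with other settings, where the lowest values were -0.54 for MANBAL and -0.05 for STRADB. The arrays were all higher than CTL for 5 of the 10 (10.5% over all tested), and 6 had an unadjusted p under 0.05. The share of all tested at that p is not given, for this or for later counts of this kind. No excess can therefore be read from them.

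BAG2 came closest after ARMCX1, with 14.60, 14.36 and 14.54 in the GFP_TRA arrays, against 13.64, 13.78 and 13.96 in the CTL arrays. That difference was 0.71 ± 0.18 (adjusted p = 0.0590) and passed with 4 of the other settings, among them leaving out CTL array 3. SZRD1 (0.68 ± 0.23), BABAM1 (0.59 ± 0.26), GRB2 (0.53 ± 0.17) and CHP1 (0.42 ± 0.19) had adjusted p values between 0.124 and 0.297. STRADB (0.12 ± 0.23), SLC15A4 (0.18 ± 0.20) and MANBAL (0.08 ± 0.18) had 95% intervals that reached -0.36, -0.23 and -0.30 at the low end and 0.59, 0.59 and 0.45 at the high end. The comparison shares its CTL arrays with the knockdown comparison, and the CTL arrays stood apart over all genes. The part of that in the result was not tested. The difference between siTRA and CTL entered the choice of the genes, and a high CTL signal enlarges it. Lower differences are therefore favoured here, and an absence of rises cannot be read from the genes that were not called.

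Within the CGG groups, overexpression of TRA2A moved none of the 10 past the test. The CGG arrays did not stand apart as CTL did, but they entered the choice of the genes. A high CGG signal favoured a gene's choice, so lower differences are favoured here and an absence of rises cannot be read from them. Differences between CGG_TRA and CGG lay between -0.36 and 0.35, 6 above and 4 below 0, with a median of 0.07 beside 0.04 over all tested. Limma called 0 of 10 (0.0383% over all tested), and 0 had an unadjusted p under 0.05. CHP1 had 14.22, 14.28 and 14.04 in the CGG_TRA arrays, against 14.30, 13.91 and 14.23 in the CGG arrays. The difference was 0.03 with a 95% interval from -0.36 to 0.43, while TRA2A itself was 6.03-fold higher in the same arrays. ARMCX1 differed by 0.15 ± 0.28 (limma adjusted p = 0.925). For MANBAL all CGG_TRA arrays, at 8.60, 8.46 and 8.58, lay above the CGG arrays at 8.32, 8.33 and 8.36 (9.24% over all tested), with a difference of 0.21 ± 0.18 (adjusted p = 0.781).

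The construct alone was set against CTL as a description, since both the CGG and the CTL arrays entered the choice of the genes, and a high CGG signal favoured a gene's choice. ARMCX1, which is in the group through its difference between CGG_siTRA and CGG, had 9.10, 9.32 and 10 in the CGG arrays, against 7.81, 8.03 and 8.34 in the CTL arrays. Its signal was 2.66-fold higher (1.41 ± 0.28), and EHD2 differed by 0.69 ± 0.19 and BABAM1 by 0.67 ± 0.26. The 10 differences ranged from 0.05 for STRADB to 1.41, with a median of 0.46 beside -0.01 over all tested. With other settings the lowest values were -0.36 for MANBAL, -0.04 for STRADB and -0.02 for GRB2. Limma called 1 of the 10, ARMCX1, beside 0.504% called higher over all tested, and 0 without CTL array 1, CTL array 2 or CGG array 3 or with the variance from the arrays compared. The choice of the genes favoured such a call, so it is no test of the construct. For 6 genes the CGG arrays were all above CTL (7.37% over all tested). The low CTL level of these genes enters their difference between siTRA and CTL too, so that siTRA was compared with a lower level than CGG_siTRA was.

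**Figure D3:**
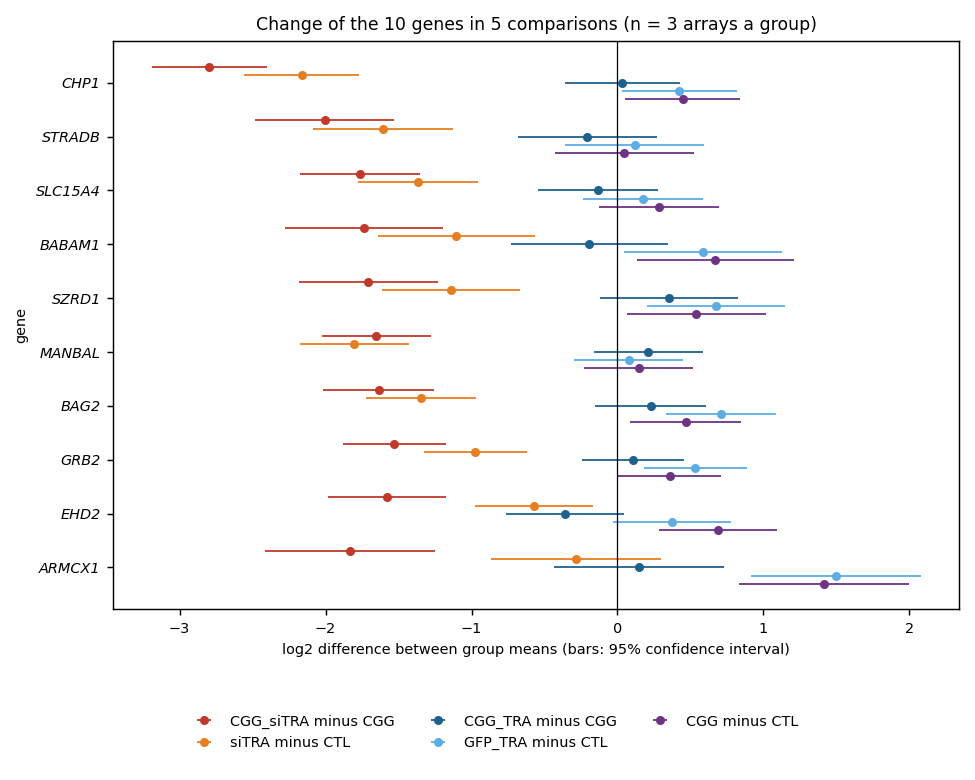
Log2 differences of the 10 genes in the 5 comparisons between groups, with points for the estimates and lines for 95% intervals from the model over 18 arrays (n = 3 per group). The 2 knockdown comparisons lie below 0, the comparisons of GFP_TRA and of CGG with CTL lie at or above 0, and that of CGG_TRA with CGG lies around 0.

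The likeness of other genes was read from Pearson's r over the 18 arrays with the mean profile of the 10, each centred on its own mean. The knockdown and other arrays form separate clusters in this profile, so r mostly reads that separation and has no p. The genes outside the group with the highest r were CDKN3, a phosphatase of cyclin-dependent kinases (0.973), and MEAF6, a subunit of histone acetyltransferase complexes (0.973). CHMP4B, an ESCRT-III subunit, and PTP4A2, a tyrosine phosphatase, both had 0.968, and WASL, an activator of actin branching, had 0.966. TRA2A ranked 108 with 0.872. Over the 12 arrays without knockdown, the members followed their common profile to different degrees, at r = 0.940 for ARMCX1, 0.924 for CHP1 and 0.875 for BAG2, against 0.165 for STRADB and 0.518 for SLC15A4. Each member is part of the profile it was set against.

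The exon-level table measures single exon regions and exon-exon junctions of these genes. It lists 250 such features for the 10 genes, 161 exon regions and 89 junctions, of which 157 (96 and 61) had a mean above 7.46, the median of all feature means. The siTRA arrays were all below CTL for 115 of the 157 (10.3% over all tested features), and the CGG_siTRA arrays were all below CGG for 128 (8.27%). For 104 the 6 knockdown arrays were below all 12 others (1.29%). Features are parts of the genes chosen, so these counts describe where in each gene the lower signal was seen and are not further evidence of it. By kind of feature, 75 of 96 regions and 40 of 61 junctions were separate and lower in siTRA, and 82 and 46 in CGG_siTRA, where 3 junctions were separate and higher. Across the 157 features the 2 knockdown differences correlated at r = 0.729 (Spearman's rho 0.766), a description across features that share genes and arrays.

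In 7 of the 10 genes, most features had the 6 knockdown arrays below the 12 others. STRADB had all 30 features below 0 in both comparisons, with medians of -1.82 and -2.09, and 27 of 30 had the knockdown arrays lowest. CHP1 had 17 of 23 such features, with medians of -2.14 and -2.50. SLC15A4 had 13 of 16, GRB2 12 of 16, BAG2 4 of 5, SZRD1 14 of 21 and BABAM1 13 of 25. The CHP1 exon region PSR1500148847.hg.1 had 10.25, 10.28 and 9.71 in the siTRA arrays, against 12.21, 13.07 and 13.30 in the CTL arrays. It had 9.82, 9.47 and 10.01 in the CGG_siTRA arrays, against 13.51, 13.77 and 13.92 in the CGG arrays, which was the largest difference of any CHP1 feature, at -3.97. In STRADB the exon region PSR0200174000.hg.1 differed by -2.48 and -2.60, and in BAG2 the junction JUC0600053899.hg.1 by -2.39 and -2.80.

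In the other 3, MANBAL, EHD2 and ARMCX1, fewer features did. In MANBAL it was 2 of 7: the exon region PSR2000150258.hg.1 differed by -2.85 and -2.92, while the junction JUC2000050187.hg.1 differed by 0.99 and 0.21. That region had 11.47, 10.74 and 10.32 in the siTRA arrays, against 13.68, 13.51 and 13.88 in the CTL arrays. It had 10.86, 10.83 and 11.68 in the CGG_siTRA arrays, against 13.94, 14.05 and 14.13 in the CGG arrays. The region followed the gene value in direction and exceeded it in size. EHD2 had 4 of 10 features separate in siTRA and 9 of 10 in CGG_siTRA, and its exon region PSR1900164808.hg.1 stood at 0.15 and 0.24. ARMCX1 had 0 of 4 in siTRA and 3 of 4 in CGG_siTRA, with medians of -0.04 and -2.22, as at the gene level.

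Of the 157 features, 26 were not below 0 in both comparisons, with 8 of 25 in BABAM1, 3 of 7 in MANBAL, 3 of 23 in CHP1 and 0 in STRADB and BAG2. In BABAM1 they included regions of high signal, such as PSR1900199849.hg.1, with means of 17.85 in siTRA and 18.00 in CTL, and 17.97 in CGG_siTRA and 17.87 in CGG. The CHP1 junction JUC1500049377.hg.1 was also high and nearly level, at means of 16.81 in siTRA and 17.15 in CTL, and 17.12 in CGG_siTRA and 16.78 in CGG. These features were singled out after their values were seen. The CHP1 junction JUC1500049370.hg.1 had 12.10, 10.84 and 11.93 in the siTRA arrays, against 7.91, 11.07 and 9.84 in the CTL arrays. Its mean differed by 2.02, with overlapping arrays, and by -0.79 between CGG_siTRA and CGG. The spread was far wider than that of the gene in CTL, in CGG (9.04, 12.36 and 11.16) and in GFP_TRA (9.83, 12.73 and 10.81). In these groups array 1 was lowest and array 2 highest, while in siTRA and CGG_TRA array 1 was highest. In SLC15A4 the exon region PSR1200197177.hg.1 differed by -0.10 and 0.14, in GRB2 PSR1700195413.hg.1 by 0.12 and 0.20, and in BABAM1 the junction JUC1900071219.hg.1 by 0.02 and 0.34. Probes follow human sequence, and what the monkey transcript carries at each feature was not tested.

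**Figure D4:**
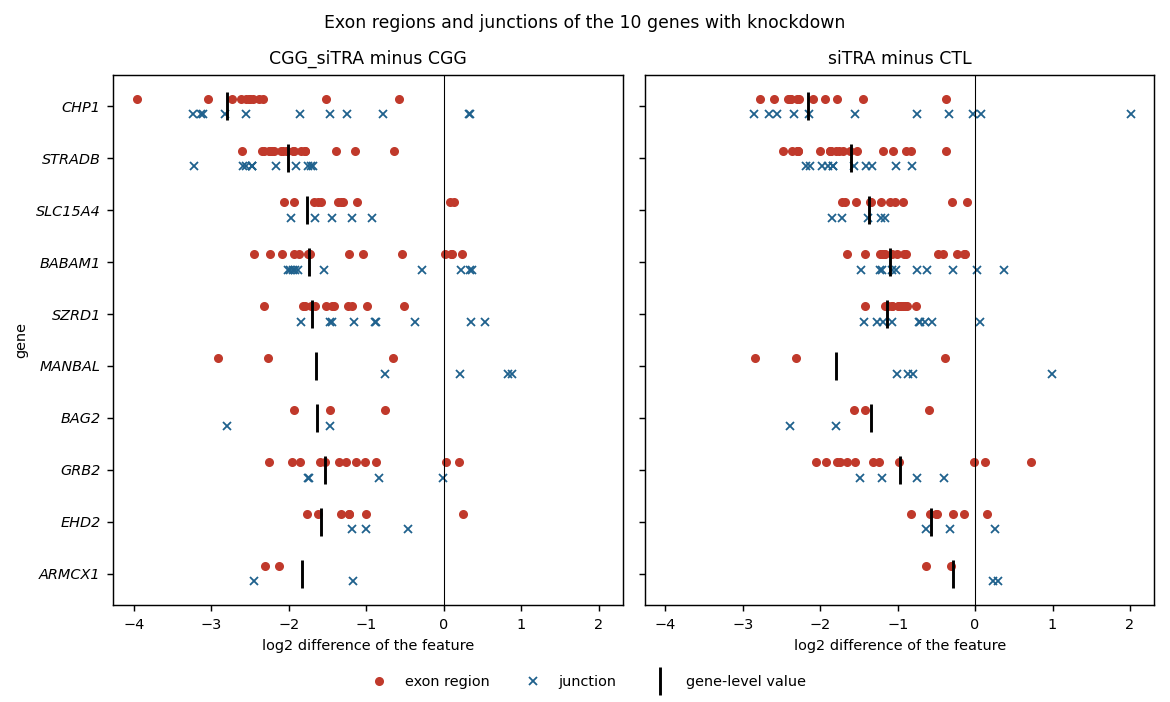
Log2 differences of the 157 exon-level features by gene, exon regions as circles and junctions as crosses, for CGG_siTRA minus CGG in 1 panel and siTRA minus CTL in the other, with a vertical bar at the gene-level value. STRADB features all lie left of 0 in both panels, and MANBAL, BABAM1 and CHP1 have features on either side.

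Exon usage, a feature's value after subtracting its gene's value array by array, was tested in the comparisons other than knockdown. In GFP_TRA against CTL, limma called 1 of 157 features, beside 0.191% over all tested, and 19 had an unadjusted p under 0.05. This was the MANBAL junction JUC2000050183.hg.1, which was lower by 1.23 ± 0.24 relative to its gene (adjusted p = 0.0454). Its own mean signal was highest in CTL, at 8.18. The means were 7.03 in GFP_TRA, 6.91 in CGG, 7.31 in siTRA, 7.61 in CGG_TRA and 7.80 in CGG_siTRA. No feature was called with no filter, relative to the gene's median feature, with the replicate number as a block, or without CTL array 1, CTL array 2, GFP_TRA array 2 or GFP_TRA array 3, and 3 were called without CTL array 3. In CGG_TRA against CGG limma called 0 (0.00563% over all tested), with 9 at an unadjusted p under 0.05.

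In CGG against CTL, whose arrays entered the choice of the genes and whose gene value is the one subtracted, 3 of 157 features were called lower relative to their gene, beside 0.602% over all tested, and 25 had an unadjusted p under 0.05. They were the same MANBAL junction (-1.41 ± 0.24, adjusted p = 0.00877), the MANBAL junction JUC2000050184.hg.1 (-1.65 ± 0.36, adjusted p = 0.0485) and the SZRD1 junction JUC0100092533.hg.1 (-1.50 ± 0.32, adjusted p = 0.0401). The SZRD1 junction had 7.61, 6.86 and 7.46 in the CGG arrays, against 8.66, 7.94 and 8.20 in the CTL arrays, while SZRD1 as a gene was not lower. No feature was called without CTL array 1 or CGG array 3, and 1 was called without CGG array 2. A high CGG value of the gene, which the choice favoured, lowers features relative to their gene, so these p-values are a description.

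Known partners and paralogs of the 10 genes were read from 9 lists of 83 genes, of which 77 were found on the array and 73 passed the filter. Between siTRA and CTL, 7 of 73 rose (9.59%, beside 1.13% called higher over all tested) and 1 fell (1.37%, beside 0.42% called lower). A further 20 of the 73 had an unadjusted p under 0.05 without a call, and the median was 0.20 beside 0.01. The partners are named genes, while only 25413 of the 67854 transcript clusters tested have 1 symbol. Shares and medians over named genes alone were not taken, so an excess particular to partners cannot be read from these values. Between CGG_siTRA and CGG, limma called 0 of 73 (0.147% over all tested), with 10 at an unadjusted p under 0.05 and a median of -0.05. For 6 of the 7 that rose, all but SIK1, the CTL arrays lay below all other 15 arrays, so that every treated group was higher than CTL, and for the 1 that fell they lay above all 15. The count of 8 was 4 without CTL array 1, 5 without siTRA array 1, 3 without siTRA array 3 and 0 with the variance from the arrays compared.

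BAG3, the co-chaperone of selective autophagy in the same family as BAG2, had 12.92, 12.71 and 13.07 in the siTRA arrays, against 11.29, 11.39 and 11.96 in the CTL arrays (1.35 ± 0.18, adjusted p = 0.000325). It was the 1 of 7 tested genes of the BAG and Hsp70 list that passed. LAMP2, a lysosomal membrane protein, had 11.47, 11.43 and 11.45 in the siTRA arrays, against 10.45, 9.77 and 10.34 in the CTL arrays (1.26 ± 0.18, adjusted p = 0.000709). These 2 kept their calls with any 1 siTRA or CTL array left out. The list of SLC15 transporters and lysosomal proteins had 3 of 7 higher: LAMP2, the peptide transporter SLC15A2 (1.04 ± 0.20, call lost without siTRA array 3) and the lysosomal amino acid sensor SLC38A9 (0.90 ± 0.18, lost without CTL array 1 or siTRA array 1). SLC15A2 had 4.12, 3.84 and 4.15 in the CTL arrays, at the filter on low signals, so its difference is measured from near background. BAG3 also stood at 1.47 in GFP_TRA and 1.47 in CGG against the same CTL arrays, and LAMP2 at 1.15 and 1.15.

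SIK1, a kinase activated by LKB1, rose by 1.09 ± 0.25 (adjusted p = 0.0305) as the 1 of 9 in the LKB1 list, a call lost with 4 of 6 single arrays left out (adjusted p up to 0.172). STRADA, the paralog of STRADB, stood at -0.64 (adjusted p = 0.144) in siTRA and -0.97 ± 0.21 (adjusted p = 0.0820) in CGG_siTRA. SHC1, which recruits GRB2 to receptors, rose by 0.89 ± 0.19 (adjusted p = 0.0203), the 1 of 9 in its list, a call lost without CTL array 1 or siTRA array 3 (adjusted p up to 0.122). ARMCX3, a paralog of ARMCX1, rose by 1.19 ± 0.27 (adjusted p = 0.0282), again 1 of 9, and by 0.24 with the median of its exon features as its value, where it was not called. Its call was also lost with 3 of 6 single arrays left out (adjusted p up to 0.120). EHD4, a paralog of EHD2 in endocytic recycling, had 11.49, 10.89 and 10.89 in the siTRA arrays, against 11.74, 12.31 and 12.23 in the CTL arrays. EHD4 fell to a mean of 11.09 in siTRA, against 12.09 in CTL (SE of the difference 0.20, adjusted p = 0.0115), the 1 of 10 in the list of EHD proteins and caveolae. Its means were 11.59 in GFP_TRA and 11.55 in CGG, also under CTL, and the call was lost with 3 of 6 single arrays left out (adjusted p up to 0.0667). PACSIN2 of the same list stood at -0.90 ± 0.23 in CGG_siTRA (adjusted p = 0.236).

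No gene was called in the lists of CHP1 partners (0 of 6), BRCA1-A and BRISC subunits (0 of 8) or mannosidases and R3H-SUZ proteins (0 of 8). Among these, 2, 3 and 2 genes had an unadjusted p under 0.05 between siTRA and CTL. The smallest p were those of the calcineurin subunit PPP3CC (0.48 ± 0.20, adjusted p = 0.287), the BRISC deubiquitinase BRCC3 (0.63 ± 0.20, adjusted p = 0.134) and the mannosidase MAN2B2 (0.47 ± 0.21, adjusted p = 0.351). Between CGG_siTRA and CGG the values nearest to a call in their lists were SLC38A9 at 0.87 ± 0.18 (adjusted p = 0.0690) and R3HDM1 at -0.59 ± 0.18 (adjusted p = 0.385).

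**Figure D5:**
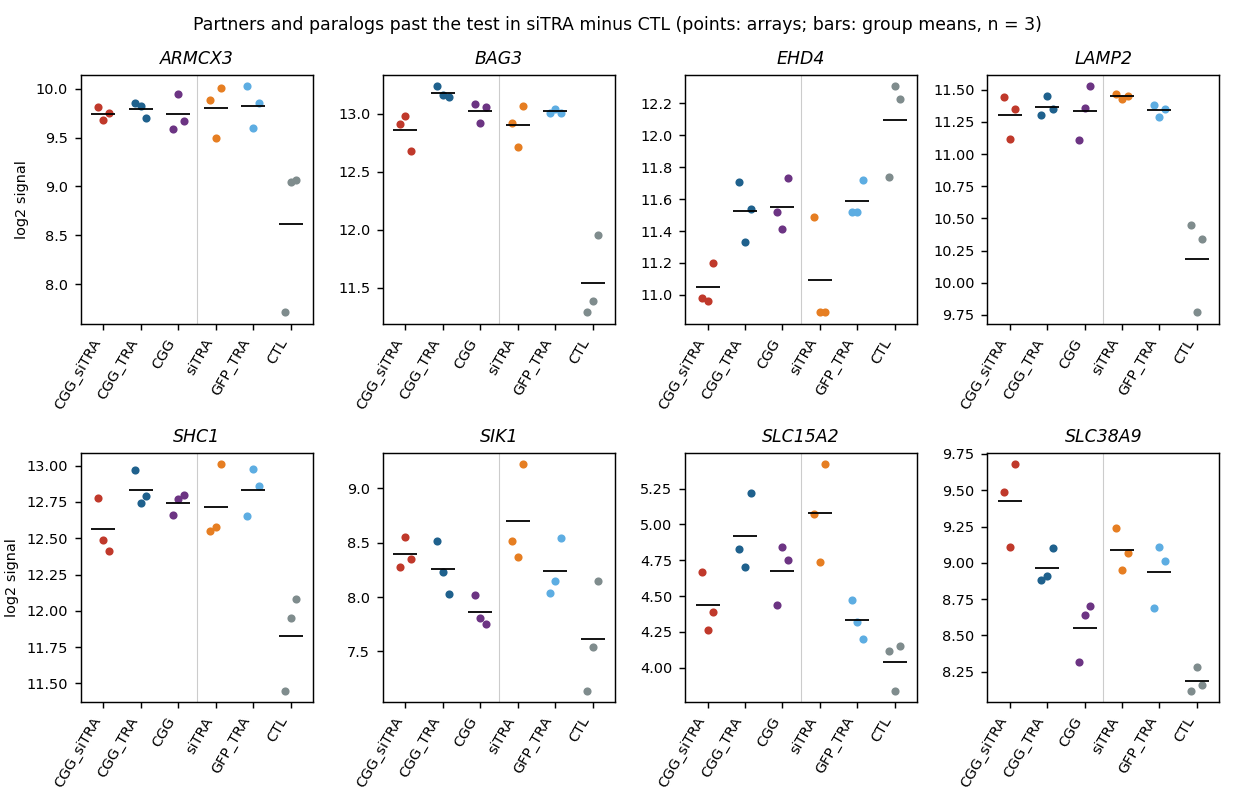
Log2 signal of the 8 partners and paralogs called between siTRA and CTL in each of the 18 arrays, points for arrays and bars for group means (n = 3). For 6 of the 8 (BAG3, LAMP2, SHC1, ARMCX3, SLC38A9 and SLC15A2) the 3 CTL arrays lie below the other 15, and for EHD4 they lie above them.

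Markers of other cell types were measured beside these genes. Of 35 tested markers, 3 were called higher in siTRA than in CTL (8.57%, beside 1.13% over all tested). They were the epithelial genes CLDN4 (2.55 ± 0.28) and ESRP1 (0.90 ± 0.17) and the mesenchymal S100A4 (1.30 ± 0.22). The kidney factor PAX8 was lower by 1.09 ± 0.22 (1 of 35, beside 0.42% called lower). Against the same CTL arrays, which stood apart, 2 of 35 were called higher in GFP_TRA (0.949% over all tested) and 2 of 35 in CGG (0.504%). Between CGG_siTRA and CGG limma called 0 of 35 (0.147% over all tested), with 5 at an unadjusted p under 0.05. As for the partners, shares over named genes alone were not taken, so no excess among markers can be read. Leukocyte markers had mean signals between 4.12 and 7.95 and neuronal markers between 3.75 and 5.72. Their part in the differences of the 10 genes was not tested.

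Genes next to the 10 on the chromosome were read from the same fit, and none of those tested passed. In the RefSeq annotation of the green monkey assembly mChlSab1.0, used for gene order alone, the 10 have 20 flanking protein-coding neighbours, none of them a member, and 13 were tested. Limma called 0 of 13 in either knockdown comparison, with 1 and 0 at an unadjusted p under 0.05. The 1 was TRAK2, beside STRADB, at 0.78 between siTRA and CTL (adjusted p = 0.122). This comparison was chosen after the values were seen.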

How the data were processed

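The authors deposited log2 values of 18 arrays at gene and exon level, made by SST-RMA per the file headers. The submitters' processing notes name RMA and the Transcriptome Analysis Console. Versions and an annotation build are not given in the sources used here. RNA input was 100 ng an array, per the labels. No raw intensities were used, so the number of arrays limits the precision.

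Groups and replicate numbers came from the array titles. In R 4.3.3, limma 3.58.1 and the data.table package at version 1.17.8 fitted 6 group means over all 18 arrays (lmFit, eBayes, two-sided) to transcript clusters with a mean above the median of means. P-values were adjusted by Benjamini-Hochberg over all 67854, with a call under 0.05. Exon-level features were tested after subtracting their gene's value, for 230888 features above the median feature mean in genes with at least 3 features. Scripts were tested on simulated data. Gene-level rows of the exon data equalled the gene-level values. Genes were named by the platform annotation, and 36176 transcript clusters have 1 symbol, 1119 several and 98455 none. The deviations of same-numbered arrays were at most weakly correlated (r from -0.100 to 0.143), so the numbers were not treated as pairs. In GFP_TRA against CTL, though, each array was matched best by the array of its own number (r = 0.060, 0.059 and 0.016). In siTRA against CTL no array was, and the other comparisons were mixed.

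The 10 genes, the partner and marker lists and the comparisons were chosen with earlier results of these data known. Named were the 10 genes, TRA2A and TRA2B, called partners (otherwise at most 1 per list with the smallest p), the 5 genes most alike, the first 5 others ordered by the weaker knockdown difference, and per gene the feature with the largest and smallest difference. CBX1P2, the markers, TRAK2 and the features singled out or called in exon usage were named after their values were seen. Alternatives covered the filter, normalization, variance, replicate block, rehybridisation, gene-level summary and each array left out.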

Additional observations from a re-analysis of the deposited data

Results flagged for a closer look

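The MANBAL junction JUC2000050183.hg.1 had opposite differences in the 2 knockdown comparisons. It had 7.17, 7.22 and 7.53 in the siTRA arrays, all below 8.48, 8.20 and 7.86 in the CTL arrays, a difference of -0.87. It had 7.93, 7.71 and 7.75 in the CGG_siTRA arrays, all above 7.12, 6.84 and 6.78 in the CGG arrays, a difference of 0.88. The CHP1 junction JUC1500049377.hg.1 likewise was lower in every siTRA array than in CTL (-0.34) and higher in every CGG_siTRA array than in CGG (0.34). That these differences differ was not tested at either feature. The MANBAL junction was also lower in GFP_TRA (7.20, 6.87 and 7.01) than in CTL, and its mean in CTL was the highest of the 6 groups.

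Of the 8 partners called between siTRA and CTL, 2 passed limma's interaction test. The siTRA difference enters that test with a minus sign, so for partners that rose, negative values were favoured by their choice. BAG3 had an interaction of -1.52 ± 0.25 (adjusted p = 0.0133), with -0.16 between CGG_siTRA and CGG beside 1.35 between siTRA and CTL. LAMP2 had -1.29 ± 0.26 (adjusted p = 0.0447), with -0.03 beside 1.26. In both genes the CTL arrays lay below the other 15. BAG3 had 11.29 to 11.96 in CTL, against 12.68 to 13.24 in the others. LAMP2 had 9.77 to 10.45 in CTL, against 11.11 to 11.53. The low CTL level enters both interactions, so whether knockdown depended on the construct cannot be read from them. Other settings were not tried for these 2 tests. Groups of 3 arrays were too small to look for single outlying arrays.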

How the results depend on the processing

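No difference called in the main fit or in an alternative changed sign, and neither did a median knockdown difference. Differences without a call did change sign in places. MANBAL in GFP_TRA against CTL went from 0.08 to as low as -0.54, and the GRB2 interaction from -0.56 to as high as 0.21. Of the results that answer a comparison, 116 values stayed within a set margin and 36 moved. The margin let small shifts of a count pass, such as 2 exon features in place of 3 in CGG against CTL. It also let a median shift by less than the spread between replicates, 0.22. With the median of a gene's exon features as its value, the median knockdown difference of the 10 genes was -0.71 against CTL and -0.92 against CGG. With 1 array left out it ranged from -1.42 to -1.12 and from -1.80 to -1.60. The second transcript cluster of BABAM1 gave -0.22. The count of the 10 genes called in GFP_TRA against CTL was 2 with the 75th-percentile filter, the rehybridisation covariate or the exon medians, 3 with a trended and robust variance, 0 with the variance from the arrays compared, and 0 to 3 with 1 array left out. In CGG against CTL it was 2 with the trended and robust variance, 0 with the variance from the arrays compared, and 0 to 2 with 1 array left out. Partners called in siTRA against CTL were 0 with the variance from the arrays compared, 3 without both rehybridised arrays (a setting chosen after seeing the data) and 3 to 10 with 1 array left out. In CGG_siTRA against CGG they were 2 with the 75th-percentile filter or the trended and robust variance, and 1 with quantile normalization or the exon medians. Exon features called in GFP_TRA against CTL were 0 with no filter, relative to the median feature or with the replicate block, and 0 to 3 with 1 array left out, and in CGG against CTL 0 to 3. The replicate block gave the same gene-level counts, with 8 partners and 1 of the 10 genes called against CTL, and 2 exon features in CGG against CTL. Causes were not tested. With 3 arrays a group and no detection calls, small differences at low signal cannot be resolved.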
